A study of Mus musculus with 6 samples.

Results

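The RAB GTPase genes were taken from the deposited gene table by symbol: Rab, a number, and at most 1 paralog letter (a to d) with 1 further digit. This left out the many genes named for proteins that bind or regulate RABs. It selected 57 of 23420 genes, of which 37 passed the filter on low counts, against 10352 of all genes. The values come from FoxP3+ regulatory T cells (Tregs, the CD4 T cells that restrain immune responses) sorted from tumors. The tumors were grown from 10000 injected T11 cells, a transplanted mouse line that models claudin-low triple-negative breast cancer. All host mice were BALB/c animals whose FoxP3-expressing cells carry GFP, and the sort for GFP reached a purity above 90%. The untreated group gave 3 libraries (numbered 1 to 3). The other group gave 3 libraries (4 to 6) from mice injected into the peritoneum 2 times a week with J43, an antibody against PD-1, at 200 µg a dose, and is called anti-PD-1 or treated here. PD-1 is an inhibitory receptor of activated T cells. Tumors of both groups were collected at 150 mm2. The labels name no control antibody for the untreated group, no age of the mice, and no record of whether libraries came from separate or pooled mice. Errors and p-values below therefore describe how these libraries vary, and that variation may be partly or wholly technical.

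RAB proteins are small GTPases that act as switches on membranes: bound to GTP they recruit effectors that form, move, tether and fuse vesicles, and bound to GDP they are drawn off the membrane. Each RAB marks its own set of compartments, such as the Golgi, early endosomes, recycling endosomes or lysosomes. In T cells this traffic carries the antigen receptor, cytokine receptors and the inhibitory receptor CTLA-4 to and from the surface, and it moves secretory granules to the contact with a target cell.

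Total counts ran from 4766533 to 6686774 per library, and every untreated library was deeper than every anti-PD-1 library. The sorted identity was visible in the markers: Foxp3 stood at 450.0 ± 11.6 CPM (counts scaled to the library total; mean ± SD of 3 libraries here and elsewhere) without treatment and at 522 ± 53.5 CPM with it, and Cd4 at 422 ± 50.3 and 477 ± 16.6 CPM. Other Treg markers had lower means with treatment: Ctla4 stood at 1688 ± 178 and 1270 ± 69.2 CPM and Ikzf2 at 2144 ± 190 and 1821 ± 124 CPM, both with separate groups, and Il2ra at 1389 ± 308 and 1088 ± 154 CPM with overlap. The 8 Treg and T cell markers together took 0.674% to 0.689% of counts in untreated and 0.565% to 0.646% in treated libraries, with no marker past the threshold in edgeR's test. Macrophage markers took at most 0.0037% of counts in any library, CD8 T cell markers at most 0.00518% and neutrophil markers at most 0.00188%. Markers of B cells, NK cells, dendritic cells and mast cells took at most 0.00193% each. The tumor and stroma list, which includes Vim, a gene that T cells also express, took 0.147% to 0.189% without treatment and 0.114% to 0.178% with it, and Krt8, Krt14 and Cdh5 had no count. The neutrophil markers were lower in every anti-PD-1 library (0.000153% to 0.000393%, against 0.000957% to 0.00188%). Nearly all of these counts were of Ltf (15.3 ± 4.42 and 2.64 ± 1.21 CPM, edgeR adjusted p = 0.136), while S100a8 and Ngp were near 0 and S100a9, Camp and Retnlg had no count in any library. The part of these markers and of depth in the values below was not tested. Untreated library 1 held the highest value of 14 and the lowest value of 9 of the 37 tested RAB genes. Anti-PD-1 library 6 held the lowest value of 10 of them and anti-PD-1 library 5 of 7. Beyond the RAB genes, untreated library 1 also differed most from the other libraries. Pairs with it gave a chi-square of 23.7 to 30.8 per degree of freedom, against 9.71 to 14.9 for all other pairs. RAB log2 fold changes that moved by over 1.5 times or changed sign without it are therefore also given without it. Rab2b, Rab40c and Rab7l1 were not checked in this way, and no such values are given for them or for regulators and effectors.

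Rab8b was the most abundant RAB transcript in these cells. Its product carries cargo from the Golgi and recycling endosomes to the cell surface. Levels were compared between genes as FPKM, which is the CPM divided by the deposited gene length in kilobases. Rab8b stood at 142.9, 136.5 and 153.7 FPKM in untreated libraries 1 to 3 and at 133.4, 125.0 and 117.4 FPKM in treated libraries 4 to 6. It was the only one of the 37 tested members whose 6 values all lay above every value of the next gene in the order, Rab21 (61.86 to 105.7 FPKM). Rab8b lay at percentile 96.7 of all tested genes by mean level and made up 14.3% ± 1.39 of the summed RAB level (FPKM) in untreated and 13.7% ± 0.56 in treated libraries.

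Below Rab8b came a close group of widely expressed RABs. By mean FPKM over all libraries the order was Rab21, Rab1, Rab10, Rab5a, Rab7, Rab18, Rab5c, Rab6a and Rab14. In untreated libraries these ran from 77.8 ± 24.3 FPKM (Rab21) to 37.4 ± 7.96 FPKM (Rab5c), and in treated libraries from 69.98 ± 5.85 FPKM (Rab21) to 32.5 ± 2.96 FPKM (Rab14). Neighbours in this order did not differ beyond their spread: of the 36 neighbouring pairs among the tested members, 1 had separate ranges, that of Rab8b and Rab21. In 2 pairs the upper gene was higher in all 6 libraries. The 10 highest members held 65.9% ± 1.92 of the summed RAB level in untreated and 63.1% ± 1.37 in treated libraries. The level of Rab7 rests on a deposited gene length of only 624 bases, whose start lies 31327 bases from the start that RefSeq gives, so its FPKM may not be comparable with the others.

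**Figure D1:**
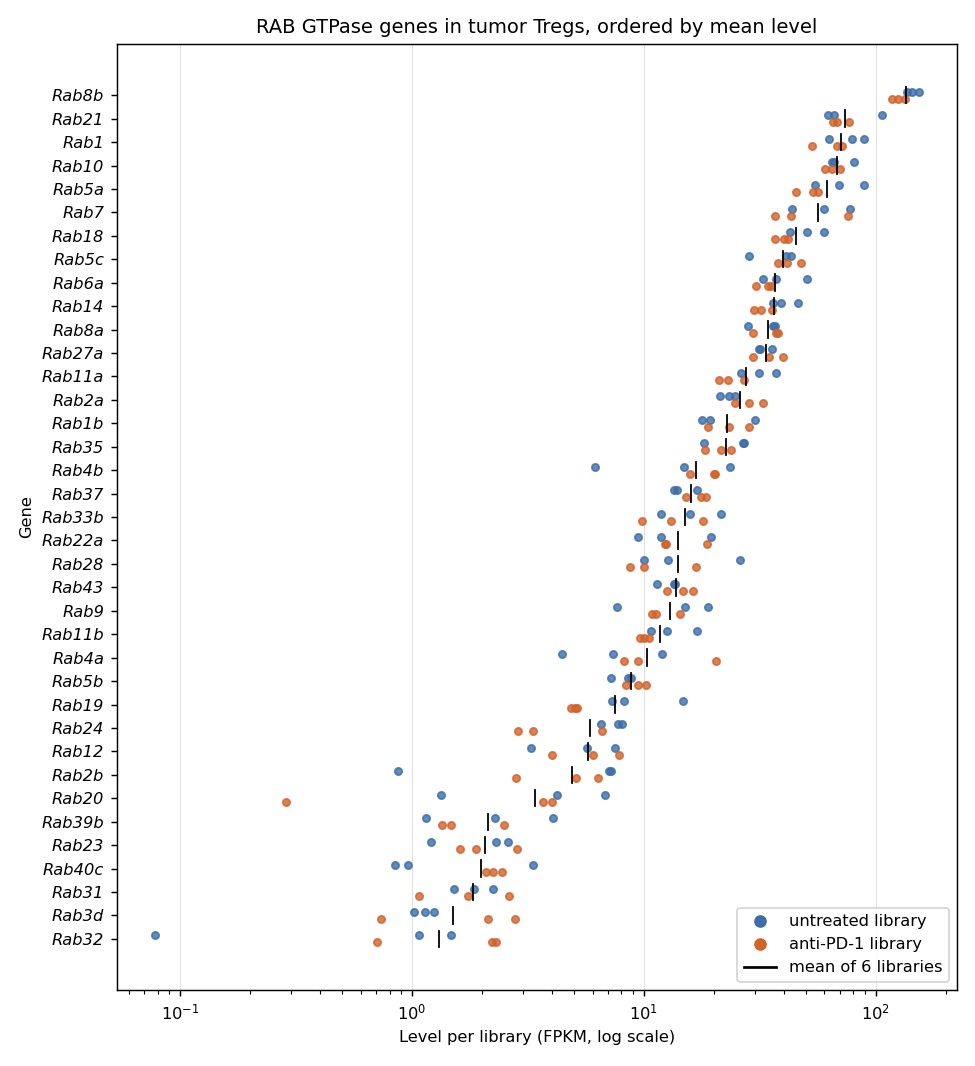
Level of each of the 37 tested RAB GTPase genes (vertical axis, ordered by mean) in each library, in FPKM on a log axis (horizontal); blue points are untreated libraries, orange points anti-PD-1 libraries, and black ticks the mean of 6 libraries. Rab8b stands apart at the top with 117.4 to 153.7 FPKM, the following genes overlap one another, and the lowest mean is 1.31 FPKM for Rab32.

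The promoters of the members give a feature that the choice of genes did not use. RefSeq windows of 300 bases around the start site (250 before, 50 after, build GRCm38.p6) matched 46 of the 57 members. The windows of the 32 tested members had a median GC content of 63.5% and a median CpG ratio (observed over expected CG pairs) of 0.781, against 52.7% and 0.384 over all 32851 windows. For the 14 matched members that did not pass the filter these were 58.5% and 0.538. The windows over all genes include genes that did not pass the filter. Those of the other tested genes were not summarised, so these values do not set RABs apart from other expressed genes. Printed are the most abundant member, Rab8b, the member with the smallest unadjusted p between treatments, Rab5a, and Rab25, an epithelial member with no count in any library. Each is given 5′ to 3′ on the strand of its gene, with capitals marking matches on either strand to the GC box GGGCGG, the CCAAT box CCAAT, the E box CACGTG or the cAMP response element TGACGTCA. The windows are chr9:66919656-66919955 on the minus strand for Rab8b, chr17:53478984-53479283 on the plus strand for Rab5a and chr3:88548230-88548529 on the minus strand for Rab25.
Rab8b: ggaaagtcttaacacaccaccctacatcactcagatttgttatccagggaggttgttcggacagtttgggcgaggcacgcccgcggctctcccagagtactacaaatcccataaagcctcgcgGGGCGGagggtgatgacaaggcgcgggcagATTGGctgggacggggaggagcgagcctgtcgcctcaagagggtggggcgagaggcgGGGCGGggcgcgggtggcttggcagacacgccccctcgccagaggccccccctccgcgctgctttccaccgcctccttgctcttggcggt
Rab5a: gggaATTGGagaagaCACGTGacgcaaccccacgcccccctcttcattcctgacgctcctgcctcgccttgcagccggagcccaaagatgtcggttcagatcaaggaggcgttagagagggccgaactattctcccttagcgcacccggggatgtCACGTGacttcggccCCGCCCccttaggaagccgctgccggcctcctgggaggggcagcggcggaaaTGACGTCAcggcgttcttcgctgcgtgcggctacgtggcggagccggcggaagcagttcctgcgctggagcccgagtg
Rab25: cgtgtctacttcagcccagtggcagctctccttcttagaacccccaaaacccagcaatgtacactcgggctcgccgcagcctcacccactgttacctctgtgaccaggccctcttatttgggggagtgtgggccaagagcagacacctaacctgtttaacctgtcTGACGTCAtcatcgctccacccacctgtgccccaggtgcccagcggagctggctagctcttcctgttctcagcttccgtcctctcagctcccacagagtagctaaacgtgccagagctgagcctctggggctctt

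The GC box was in 24 of the 32 windows of tested members (75%), in 10 of 14 of the untested (71.4%) and in 35.7% of all windows. The CCAAT box was in 16 of 32, 7 of 14 and 37.4%. The E box, bound by MYC and by the lysosome regulators TFEB and TFE3, was in 5 of 32 windows of tested members (Rab5a, Rab20, Rab21, Rab23 and Rab24), in 0 of 14 of the untested and in 7.15% of all. Rab5a held 2 E boxes and a cAMP response element, an element found in 1.79% of all windows and also in that of Rab25. The shares over all windows again include genes that did not pass the filter, and shares among the other tested genes were not computed. A match is a string of letters, not evidence that a factor binds there.

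The classes of compartment had unequal shares of the RAB pool. RABs of exocytosis and secretory granules, led by Rab8b and Rab10, summed to 305 ± 18.6 FPKM in untreated and 286 ± 17.5 FPKM in treated libraries. RABs of the endoplasmic reticulum and Golgi summed to 248 ± 36.1 and 222 ± 8.18 FPKM. Early endosome RABs summed to 209.7 ± 38.0 and 189.6 ± 19.3 FPKM, recycling RABs to 132 ± 6.14 and 119 ± 12.5 FPKM, and RABs of late endosomes, lysosomes and autophagy to 86.4 ± 20.8 and 72.7 ± 21.8 FPKM. Of the sums for late endosomes, lysosomes and autophagy, Rab7 gave 60.1 ± 16.8 and 52.0 ± 21.0 FPKM. Its short deposited length therefore limits these sums and the shares of all classes. The remaining class, RABs of cilia and less studied ones, summed to 32.9 ± 7.11 and 23.0 ± 4.46 FPKM. In each of the 6 classes the sums of both groups overlapped, and early endosome RABs, for example, held 20.6% ± 2.29 and 20.7% ± 1.29 of the summed RAB level.

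The comparison between treatments asked which RAB genes differ in Tregs when tumor-bearing mice receive anti-PD-1. No RAB gene passed the test. Log2 fold changes were below 0 in 9 of the 10 most abundant members and in 12 of the other 27. Of the 37 tested members, edgeR's quasi-likelihood test called 0 in either direction at a Benjamini-Hochberg adjusted p under 0.05, against 0.029% of all tested genes (3 of 10352). Its adjusted p for the members ran from 0.551 to 0.991. Limma-voom also called 0 members, and so did DESeq2, which gave no adjusted p for 17 of the 37 and called 0.785% of all genes that it gave one. At an unadjusted p under 0.05 stood 1 member in edgeR (Rab5a, lower), 2 in DESeq2 and 1 in limma-voom. The share in edgeR was 2.7% against a background of 8.31% (4.08% lower, 4.23% higher). Of all 10352 tested genes, 805 in DESeq2 and 787 in limma-voom stood at that level. In bulk libraries such as these, fewer cells with a transcript and less of it per cell cannot be told apart.

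Below 0 lay the log2 fold changes of 21 of 37 members (56.8%), against 49.9% of all tested genes, and the median was -0.12 against 0.0016 over all. Of the 10 highest members, 9 were below 0 (all but Rab5c), with a median of -0.24. Of the other 27 tested members 12 were below 0, with a median of 0.06. The share below 0 among all genes of a level like that of the 10 highest was not computed. The median over the tested members moved to -0.0145 without untreated library 1, -0.00971 without untreated library 3 and -0.0741 without anti-PD-1 library 5, while 8 of the 10 highest were below 0 without untreated library 1 and 9 without any other library. The groups did not overlap in 5 members (13.5%), against 13.6% of all tested genes. No member was higher in all treated libraries, against 7.18% of all tested genes, and 5 were lower, against 6.44%: Rab8b, Rab18, Rab14, Rab11b and Rab19. Without untreated library 1, 9 members were lower and 1 higher without overlap (27%, against 23.5% of all tested genes, of which 11.4% were lower). With any other library left out, 6 to 9 members were lower and 1 to 3 higher. Those members made up 18.9% to 32.4%, against 21.3% to 26% of all tested genes, of which 10% to 12.3% were lower.

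**Figure D2:**
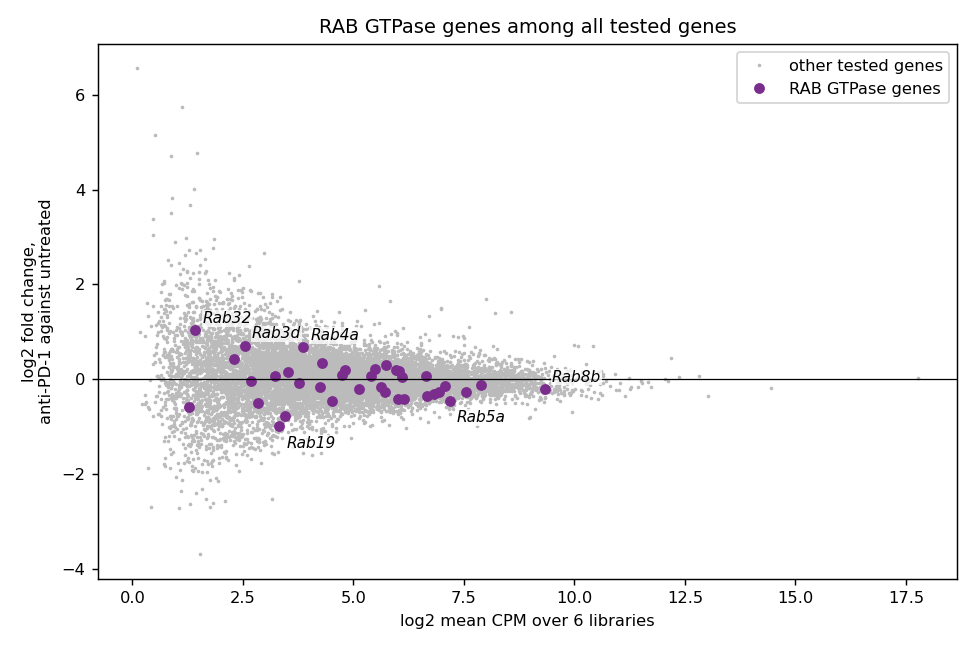
Log2 fold change between treatments (vertical axis, edgeR) against log2 mean CPM over 6 libraries (horizontal) for the 10352 tested genes; purple points are the 37 RAB genes and grey points all others. The RAB genes lie within the cloud, with the abundant ones at the right mostly just below 0 and the larger values, up to 1.04 for Rab32 and down to -0.99 for Rab19, at low CPM.

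Summed over all members, the RAB genes took 3014, 2623 and 2644 CPM in untreated libraries 1 to 3 and 2588, 2425 and 2369 CPM in treated libraries 4 to 6. The groups did not overlap, with untreated library 2 just above anti-PD-1 library 4. Without Rab8b the sums were 2335, 1975 and 1914 CPM in untreated and 1955, 1831 and 1811 CPM in treated libraries, and the groups overlapped.

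By class, the log2 fold change was below 0 in 5 of 8 tested RABs of the endoplasmic reticulum and Golgi (median -0.17) and in 2 of 7 of exocytosis and secretory granules (median 0.07). It was below 0 in 3 of 6 of early endosomes (median 0.02) and in 4 of 6 of endosomal recycling (median -0.25). In 4 of 5 of late endosomes, lysosomes and autophagy (median -0.22) and 3 of 5 of the remaining class (median -0.46) it was below 0. Over all tested genes the share below 0 was 49.9%. The median of the remaining class is the value of Rab28. Without untreated library 1, Rab28 stood at 0.0656, Rab39b at 0.0665 and Rab23 at -0.215, each with its sign changed. Class counts and medians without that library were not computed. In no class did a gene pass the adjusted threshold in edgeR.

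Among the RABs of exocytosis, Rab8b stood at 678.8, 648.3 and 730.2 CPM in untreated and 633.7, 594.0 and 557.8 CPM in treated libraries. Every anti-PD-1 value lay below every untreated one, with 633.7 CPM in anti-PD-1 library 4 close under 648.3 CPM in untreated library 2. Its log2 fold change was -0.20 ± 0.14 (SE, 95% interval -0.49 to 0.08, edgeR adjusted p = 0.731). Rab10, which acts in transport to the plasma membrane, stood at 282.7, 227.9 and 230.7 CPM untreated and 245.1, 212.1 and 226.9 CPM after anti-PD-1. The groups of Rab10 overlapped, with a log2 fold change of -0.12 ± 0.16, or -0.00902 without untreated library 1. Rab8a, the close paralog of Rab8b, stood at 74.12, 56.47 and 72.52 CPM and at 75.83, 74.50 and 59.13 CPM, with 1 low library in each group (0.04 ± 0.21, and 0.112 without untreated library 1).

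Rab27a, which docks lytic granules and other secretory lysosomes at the plasma membrane and is mutated in Griscelli syndrome, stood at 93.82, 92.93 and 106.1 CPM untreated and 102.4, 118.6 and 87.36 CPM after anti-PD-1. Library 5 was the highest and library 6 the lowest of the 6, both from the treated group, and the log2 fold change was 0.07 ± 0.19 (95% interval -0.31 to 0.46), or 0.0434 without untreated library 1. Rab37, another granule RAB, stood at 38.90, 37.89 and 47.56 CPM and at 49.48, 42.63 and 52.13 CPM. Treated libraries 4 and 6 lay above all untreated ones and library 5 among them (0.21 ± 0.24). Rab12 was listed in this class, though it routes the transferrin receptor to degradation. It stood at 11.37, 15.01 and 6.58 CPM and at 15.73, 8.07 and 12.16 CPM, with wide overlap. Rab3d, of secretory granules, was scarce, with 4.80, 3.93 and 4.38 CPM untreated and 2.84, 10.76 and 8.24 CPM after anti-PD-1, so library 4 lay below and libraries 5 and 6 above all untreated ones.

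Among the RABs of the endoplasmic reticulum and Golgi, Rab18, which acts on the endoplasmic reticulum and lipid droplets, stood at 134.6, 114.0 and 96.64 CPM untreated and 94.40, 90.44 and 83.04 CPM after anti-PD-1. The groups did not overlap, with untreated library 3 just above anti-PD-1 library 4. The log2 fold change of Rab18 was -0.37 ± 0.19 (95% interval -0.76 to 0.02, edgeR adjusted p = 0.628). Rab1, which drives transport from the endoplasmic reticulum to the Golgi, stood at 237.1, 210.2 and 167.5 CPM untreated and 180.5, 189.8 and 141.3 CPM after anti-PD-1. Untreated library 3 lay among the anti-PD-1 values (-0.27 ± 0.17). Rab6a, of transport back through the Golgi, stood at 167.9, 108.7 and 123.5 CPM and at 113.5, 101.2 and 117.2 CPM, with untreated library 1 well above the rest (-0.27 ± 0.19). Without that library the log2 fold change was -0.0709 for Rab6a, -0.147 for Rab1 and -0.238 for Rab18.

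Of the other Golgi RABs, Rab2a, Rab43 and Rab1b had log2 fold changes above 0 and Rab33b and Rab2b below. Rab2a, which acts between Golgi and endoplasmic reticulum, stood at 48.03, 43.96 and 50.93 CPM untreated and 50.80, 58.57 and 67.38 CPM after anti-PD-1. Anti-PD-1 library 4 lay just inside the untreated range and the other 2 above it (0.30 ± 0.22). Rab43, a Golgi RAB, stood at 63.88, 64.51 and 53.97 CPM and at 59.90, 69.54 and 77.47 CPM (0.18 ± 0.21). Rab1b, the paralog of Rab1, stood at 55.07, 35.21 and 32.55 CPM and at 51.94, 34.56 and 42.65 CPM (0.07 ± 0.27). In both genes the groups overlapped. Rab33b, which also binds the autophagy protein ATG16L1, stood at 74.92, 41.10 and 54.98 CPM and at 62.18, 45.53 and 34.20 CPM, again with overlap (-0.27 ± 0.26). Without untreated library 1 the log2 fold change was 0.35 for Rab1b and -0.0199 for Rab33b. The other tested Golgi member, Rab2b, ran from 2.40 CPM in untreated library 1 to 19.84 CPM in untreated library 2.

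Among early endosome RABs, Rab5a, a core factor of early endosome fusion, stood at 209.2, 164.6 and 128.7 CPM untreated and 132.5, 106.6 and 126.9 CPM after anti-PD-1. Untreated libraries 1 and 2 lay above all treated ones, while untreated library 3 fell within the treated range. Its log2 fold change of -0.46 ± 0.19 (95% interval -0.85 to -0.07) had the smallest unadjusted p of all members, 0.0234, and an edgeR adjusted p of 0.551. The log2 fold change was -0.264 without untreated library 1 and up to -0.619 in size with another library left out. Rab5c, its paralog, stood at 44.51, 67.73 and 64.25 CPM and at 75.07, 59.60 and 65.11 CPM (0.19 ± 0.22), the one value above 0 among the 10 highest members, which was 0.0146 without untreated library 1. Rab5b, the third paralog, stood at 27.06, 28.06 and 22.94 CPM and at 29.95, 26.70 and 32.35 CPM, with treated library 5 inside the untreated range (0.19 ± 0.29).

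Rab21, an early endosome RAB that controls integrin uptake, stood at 192.8, 119.9 and 112.8 CPM untreated and 139.7, 119.4 and 123.8 CPM after anti-PD-1. Only untreated library 1 lay above the treated values, and the log2 fold change of -0.15 ± 0.20 turned to 0.13 without that library. Rab22a, of early and recycling endosomes, stood at 37.14, 18.05 and 22.60 CPM and at 35.64, 23.80 and 23.49 CPM, with 1 high library in each group. Rab31, its relative in transport between Golgi and endosomes, stood at 5.28, 6.43 and 7.76 CPM and at 6.07, 9.11 and 3.71 CPM, so treated libraries were both the highest and the lowest. Without untreated library 1 the log2 fold change was 0.446 for Rab22a (0.09 with all libraries) and -0.18 for Rab31 (-0.04 with all).

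Among recycling RABs, Rab11a and Rab11b, which return receptors from the recycling endosome to the surface, had similar log2 fold changes. Rab11b stood at 103.1, 65.05 and 76.23 CPM untreated and 60.47, 58.57 and 63.67 CPM after anti-PD-1. The treated values of Rab11b lay close together and just under untreated library 2 (-0.42 ± 0.22, 95% interval -0.87 to 0.02, edgeR adjusted p = 0.625), and the log2 fold change was -0.217 without untreated library 1, the highest. Rab11a stood at 86.13, 73.45 and 61.39 CPM and at 53.65, 63.12 and 49.04 CPM, with overlap between untreated library 3 and anti-PD-1 library 5 (-0.42 ± 0.22, edgeR adjusted p = 0.636). Rab14, of traffic between recycling endosomes and Golgi, stood at 142.3, 120.6 and 111.3 CPM and at 109.8, 98.72 and 91.69 CPM. Its groups were separated by the small gap between untreated library 3 and anti-PD-1 library 4 (-0.32 ± 0.18, 95% interval -0.69 to 0.06, edgeR adjusted p = 0.674).

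The RABs of rapid recycling had other values. Rab4a stood at 6.24, 10.37 and 16.86 CPM untreated and 13.27, 28.77 and 11.54 CPM after anti-PD-1, with anti-PD-1 library 5 far above the others (0.68 ± 0.45, with 0.16 without that library and 0.371 without untreated library 1). Rab4b stood at 7.20, 27.52 and 17.37 CPM and at 18.39, 23.59 and 23.49 CPM, a spread in the untreated group that held all treated values (0.35 ± 0.39, and -0.0404 without untreated library 1). Rab35, which returns the T cell antigen receptor to the contact site, stood at 39.38, 58.62 and 57.68 CPM and at 39.62, 51.53 and 46.57 CPM, all treated values inside the untreated range (-0.18 ± 0.24, and -0.346 without untreated library 1).

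**Figure D3:**
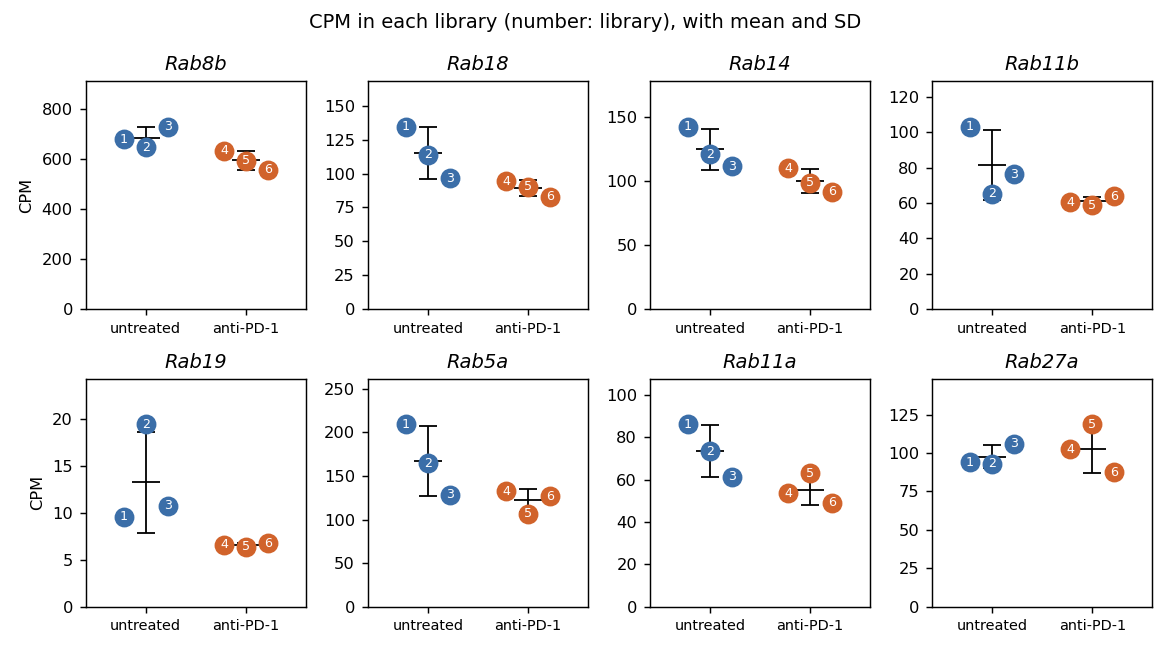
CPM (vertical axes, from 0) of 8 RAB genes in untreated (blue) and anti-PD-1 (orange) libraries; numbers are library numbers, and bars give mean and SD of 3 libraries. The groups are separate in Rab8b, Rab18, Rab14, Rab11b and Rab19 and overlap in Rab5a, Rab11a and Rab27a.

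Among RABs of late endosomes, lysosomes and autophagy, Rab7, which governs maturation and lysosome fusion, stood at 37.30, 27.16 and 48.06 CPM untreated and 26.92, 22.97 and 47.39 CPM after anti-PD-1. Both groups held a low and a high library (-0.22 ± 0.30). Rab9, of transport from late endosomes to the Golgi, stood at 11.05, 21.80 and 27.32 CPM and at 20.66, 16.35 and 15.66 CPM, all treated values inside the untreated range (-0.18 ± 0.38, and -0.483 without untreated library 1). Rab24, linked to autophagy, stood at 14.41, 15.01 and 12.14 CPM untreated and 12.32, 6.21 and 5.36 CPM after anti-PD-1. Anti-PD-1 libraries 5 and 6 were low while library 4 fell in the untreated range (-0.78 ± 0.46, edgeR adjusted p = 0.686).

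The 2 scarcest tested RABs of this class are known from macrophages and pigment cells. Rab20, of phagosomes, stood at 0.961, 3.04 and 4.89 CPM and at 2.65, 0.207 and 2.88 CPM. Rab32, of lysosome-related organelles, stood at 0.16, 3.04 and 2.19 CPM and at 4.74, 1.45 and 4.53 CPM. The groups of both overlapped, and without untreated library 1 the log2 fold change was -1.03 for Rab20 (-0.59 with all libraries) and 0.465 for Rab32. For Rab32 the log2 fold change of 1.04 ± 0.85 rested on counts of 1, 17 and 13 in untreated and 25, 7 and 22 in treated libraries.

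In the remaining class, Rab19 stood at 9.61, 19.48 and 10.79 CPM untreated and 6.63, 6.42 and 6.80 CPM after anti-PD-1. The 3 treated libraries lay within a narrow band below all untreated ones (-0.99 ± 0.49, 95% interval -1.99 to 0.02, edgeR adjusted p = 0.608), and the value was -0.62 without untreated library 2. Rab28, a ciliary RAB, stood at 42.42, 16.44 and 20.74 CPM and at 27.49, 16.35 and 14.22 CPM, with untreated library 1 apart (-0.46 ± 0.38, and 0.07 without it). Rab39b, known from neurons, stood at 13.61, 7.68 and 3.88 CPM and at 8.34, 4.97 and 4.53 CPM, with both extremes untreated (-0.50 ± 0.57, and 0.0665 without untreated library 1). Rab23, a regulator of Hedgehog signalling, stood at 5.44, 11.62 and 10.29 CPM and at 7.20, 8.48 and 12.77 CPM, likewise with overlap (0.06 ± 0.49, and -0.215 without that library). Rab40c, a RAB with a SOCS box that joins a ubiquitin ligase, stood at 4.22 ± 3.47 and 5.55 ± 0.428 CPM.

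**Figure D4:**
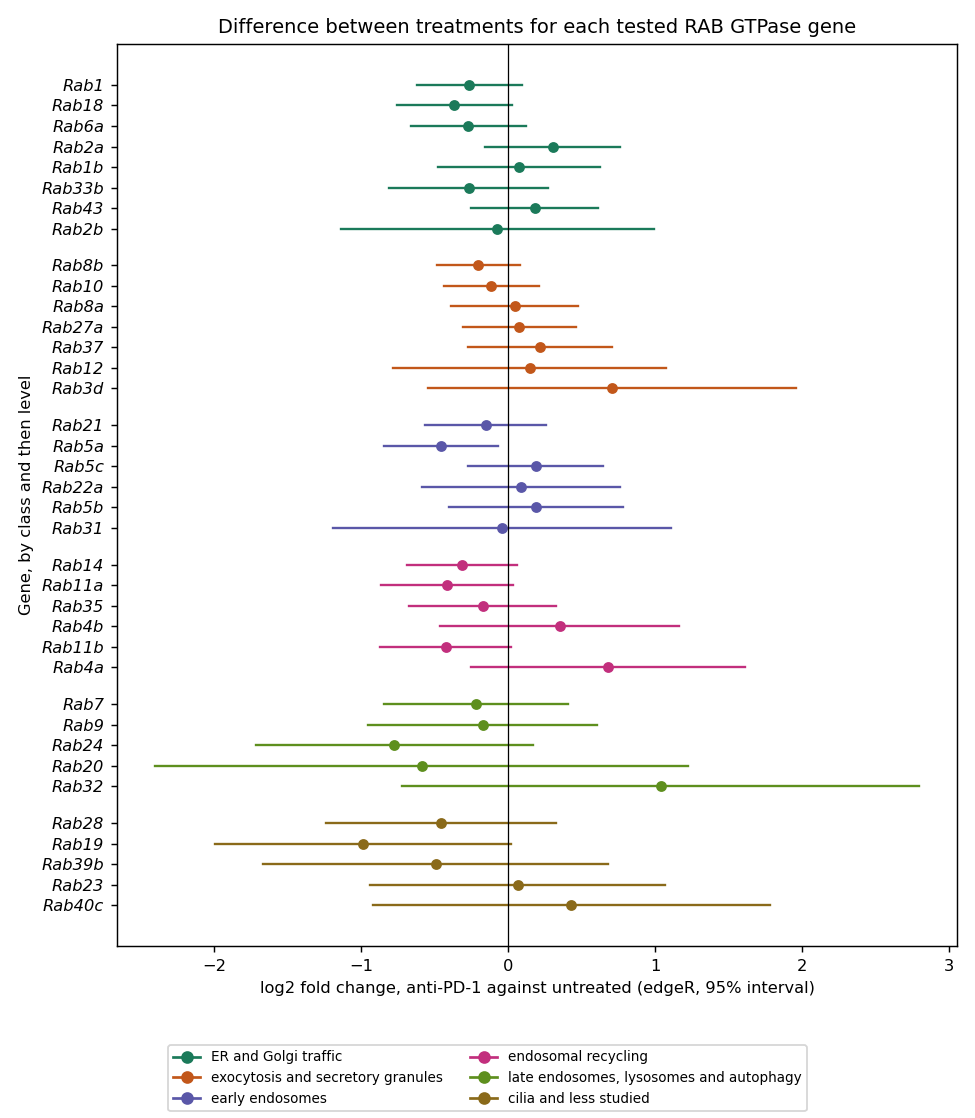
Log2 fold change between treatments (horizontal axis) with its 95% interval from edgeR for each of the 37 tested RAB GTPase genes (vertical axis), coloured by class and ordered by level within a class. The interval of Rab5a (-0.85 to -0.07) is the one that does not reach 0, and the widest intervals belong to scarce genes such as Rab32 and Rab20.

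Most paralog pairs were unequally expressed, in the same order in every library. Per length, Rab8a stood at 0.206 to 0.296 of Rab8b, Rab1 at 2.29 to 4.12 times Rab1b, Rab11a at 2.00 to 2.94 times Rab11b, and Rab5a at 1.17 to 3.13 times Rab5c. For Rab4a against Rab4b, the exception among the 8 pairs in which both members were tested, the order was not fixed (0.312 to 1.01). The ratio of Rab5a to Rab5c was 3.13, 1.62 and 1.33 in untreated and 1.17, 1.19 and 1.3 in treated libraries. The groups did not overlap in this ratio, with untreated library 3 close to anti-PD-1 library 6 and untreated library 1 far above the rest. It was the one ratio without overlap among the 8. By their levels, 13.6% of all tested genes had groups without overlap. No such share was computed for ratios of genes, so the 1 of 8 has no background here. Reads that fit near-identical copies, such as processed pseudogenes of abundant RABs, could be lost or misassigned in any of these counts.

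Many RABs known from other cell types were scarce or not detected. Of the 20 members that did not pass the filter, 10 had no count in any library: Rab15, Rab17, Rab25, Rab34, Rab38, Rab39, Rab40b, Rab42, Rab44 and Rab9b. Rab17 and Rab25 are RABs of epithelial cells and Rab38 of pigment cells. A count of 0 allows up to 3 counts, which is 0.48 to 0.621 CPM depending on the library, and covers counting error only. The other 10 had between 1 and 57 counts in all. The neuronal and endocrine RABs Rab3a, Rab3b and Rab3c and the paralogs Rab6b, Rab27b and Rab33a were among them, so Rab27a was the paralog present at a measurable level, as were Rab6a and Rab33b. Counts of some of these came almost wholly from 1 library: 44 of the 57 counts of Rab26 from untreated library 1, 17 of the 18 of Rab36 from untreated library 2, and all 8 of Rab3b from anti-PD-1 library 5. The remaining scarce members were Rab30 and Rab13.

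The genes that switch RABs on and off or read them out gave the setting for the members. Of 150 listed regulators and effectors, 126 were tested, and edgeR called 0. DESeq2 also called 0 but gave no adjusted p for 58 of them. At an unadjusted p under 0.05 stood 7 with higher and 6 with lower values (10.3%, against 8.31% of all tested genes). The groups did not overlap in 14 higher and 9 lower (18.3%, against 13.6%). The median log2 fold change was -0.07, with 74 below 0 (58.7%, against 49.9% of all tested genes) and 52 above.

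Among the genes of prenylation and membrane extraction, 7 of 8 lay below 0 (87.5%, against 49.9% of all tested genes), with a median of -0.33. Gdi2, the main protein that draws GDP-bound RABs off membranes, stood at 476.9, 396.7 and 481.2 CPM untreated and 351.8, 351.0 and 369.2 CPM after anti-PD-1, with the groups separate (-0.34 ± 0.14, edgeR adjusted p = 0.551). Chml, a RAB escort protein, stood at 49.63, 16.26 and 17.20 CPM and at 14.22, 15.11 and 17.31 CPM, so only untreated library 1 stood apart. Rabac1, the prenylated RAB acceptor, was the one above 0, at 22.41, 14.12 and 10.79 CPM and at 26.73, 24.42 and 37.29 CPM (0.89 ± 0.35, edgeR adjusted p = 0.522).

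Among 44 tested exchange factors, which load RABs with GTP, 22 lay below 0 and 22 above (median 0.0036). The groups did not overlap in 8 with higher and 0 with lower values (18.2%, against 13.6% of all tested genes). Over all tested genes 7.18% were higher and 6.44% lower without overlap. At an unadjusted p under 0.05 in edgeR stood 4 with higher and 0 with lower values (9.09%, against 8.31% of all tested genes). Rab3ip, the exchange factor of Rab8a and Rab8b also called Rabin8, stood at 13.13, 15.19 and 15.85 CPM untreated and 25.97, 23.59 and 44.92 CPM after anti-PD-1. All treated values lay above all untreated ones (1.09 ± 0.34), and its unadjusted p of 0.00416 was the smallest of the listed genes (edgeR adjusted p = 0.424). Madd, an exchange factor of Rab3 and Rab27 proteins, stood at 111 ± 9.93 and 145 ± 27.2 CPM, Sbf1 at 83.2 ± 5.23 and 108 ± 6.85 CPM, and Dennd6b at 1.12 ± 0.402 and 4.53 ± 2.49 CPM. In all 4 the log2 fold change was above 0, and edgeR's adjusted p ran from 0.424 to 0.598. The values of Dennd6b rested on counts of 7, 4 and 9 in untreated and 39, 14 and 16 in treated libraries, with library 4 far above the others.

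Among 31 tested GTPase-activating proteins, which switch RABs off, 19 lay below 0 (median -0.13), or 61.3% against 49.9% of all tested genes. Tbc1d10c, also called carabin, an inhibitor of calcineurin in T cells, stood at 59.9 ± 8.74 and 84.7 ± 14.9 CPM (0.51 ± 0.21). Tbc1d16 stood at 7.84 ± 2.52 and 2.97 ± 1.56 CPM, Tbc1d8b at 123 ± 45.9 and 86.5 ± 17.5 CPM, and Rab3gap2, a subunit that also activates RAB18 exchange, at 97.2 ± 10.5 and 76.7 ± 6.49 CPM. EdgeR's adjusted p for these 4 ran from 0.551 to 0.67. Tbc1d8b stood at 175.6, 89.71 and 104.7 CPM in untreated libraries 1 to 3, so library 1 was far above the others.

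Among 44 tested effectors, 27 lay below 0 (median -0.09), or 61.4% against 49.9% of all tested genes. Eea1, the tether that RAB5 recruits to early endosomes, stood at 212.9, 174.1 and 155.7 CPM untreated and 146.9, 138.9 and 121.8 CPM after anti-PD-1, with the groups separate (-0.41 ± 0.17, edgeR adjusted p = 0.551). Golga5, a Golgi tether that binds RAB1, stood at 71.4 ± 12.5 and 51.7 ± 4.84 CPM, and Vps41, a subunit of the HOPS complex that acts with RAB7, at 88.8 ± 19.2 and 65.7 ± 3.30 CPM. Plekhm1, which links RAB7 to lysosome fusion, was higher in every treated library, at 31.6 ± 1.33 and 50.3 ± 8.16 CPM (0.67 ± 0.25, edgeR adjusted p = 0.484).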

How the data were processed

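The authors deposited raw counts of fragments per gene for 6 libraries, made with featureCounts 1.5.2 on a UCSC mm10 annotation, per the file headers, with pairs counted as fragments and strand setting 1. The header command names no option for reads with several alignments. Alignments came from bbmap, per the file headers, and total RNA was made into NuGEN Ovation SoLo libraries, per the labels' protocols. Besides featureCounts, the submitters' processing notes list DESeq2, FastQC and bcl2fastq. The deposited gene length is in bases; 1 further column of 6 values was not used. Rn45s took 21.4% to 25.1% of counts and stayed in the totals.

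From the counts, edgeR 4.0.16 (R 4.3.3) kept genes passing filterByExpr (a count of 10, 15 in total), which held 99.8% of counts, scaled by TMM and ran the two-sided quasi-likelihood test (robust, current method) on all 6 libraries, with Benjamini-Hochberg adjustment over 10352 genes. CPM and FPKM use TMM-scaled totals; errors are SDs, and SEs and intervals come from the fit. Alternatives were DESeq2 1.42.0, limma-voom 3.58.1, RLE and upper-quartile scaling, no filter, a filter of 50 counts in 3 libraries, and each library left out. The older edgeR method and the counts below 0 or without overlap were added after seeing the data. The tests were tested on simulated data. Pairs of libraries differed by a chi-square of 9.71 to 30.8 per degree of freedom, so none was counted as a copy. The highest values were those of pairs with untreated library 1. The members, classes, regulator lists and markers were chosen with earlier results of these data known. Values per library are given for the 10 highest members, the 6 of smallest p in each direction and up to 3 more per class, and for up to 4 regulators or effectors per list by smallest p. Rab2b and Rab40c, and which values appear as mean and SD, were chosen after values were seen. The values of 1 regulator that this rule names are not reported here.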

Additional observations from a re-analysis of the deposited data

How the results depend on the processing

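No RAB gene with an adjusted p passed under any of 13 alternatives (DESeq2 gave none for 17 of 37), and the smallest adjusted p of a named member was 0.385 (Rab5a, DESeq2). Over all genes, the count of 3 became 34 with DESeq2, 5 with limma-voom or upper-quartile scaling, 52 without a filter, and 1 to 19 with 1 library left out. The RAB median of -0.116 became -0.186 without a filter, which admits 47 members, and -0.112 to -0.00971 with 1 library left out. The members below 0 numbered 20 to 24 of 37 or 38 then. Of 35 named members, 23 kept their sign throughout. Signs of 12 changed, only where a library was left out: log2 fold changes then ran from -0.298 to 0.134 for Rab21, -0.0404 to 0.84 for Rab4b, -0.0646 to 0.148 for Rab8a, -0.039 to 0.177 for Rab27a, -0.12 to 0.424 for Rab12, -0.147 to 0.446 for Rab22a, -0.39 to 0.217 for Rab31, -0.0927 to 0.35 for Rab1b, -0.483 to 0.119 for Rab9, -0.814 to 0.0656 for Rab28, -0.844 to 0.0665 for Rab39b and -0.215 to 0.276 for Rab23. The cause was not tested. No paired analysis was possible because the groups share no replicate number. Depth limits the 20 members that did not pass the filter.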

Other observations

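Rab7l1, a row that the symbol pattern leaves out, is an older name of Rab29 in the RefSeq table. It stood at 7.68, 9.29 and 15.01 CPM in untreated and 10.2, 17.0 and 10.1 CPM in anti-PD-1 libraries, with overlapping groups (log2 fold change 0.22 ± 0.44, SE, edgeR adjusted p = 0.931).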
